A study of Homo sapiens with 4 samples.

Results

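Respiratory complex I (NADH:ubiquinone oxidoreductase) is the entry point of the mitochondrial respiratory chain for electrons from NADH. The genes described here are the nuclear genes of this complex in OVCAR8 cells, an established line from a human ovarian cancer: every protein-coding gene whose name begins with NDUF, 48 of the 58735 genes and 19951 protein-coding genes in the table. They divide by name into 11 NDUFS and NDUFV genes, 29 NDUFA, NDUFB and NDUFC genes and 8 NDUFAF genes. The names follow function only in part. Of the NDUFS and NDUFV genes 7 encode core subunits (among them NDUFV1, NDUFV2, NDUFS1, NDUFS3, NDUFS7 and NDUFS8) and 4 encode accessory subunits (NDUFV3, NDUFS4, NDUFS5 and NDUFS6). NDUFA4 encodes a protein now assigned to complex IV, NDUFA4L2 is its paralog, and NDUFC2-KCTD14 is a readthrough of a complex I gene into its neighbour.

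RNA-seq compared 2 shFAM49B libraries, from OVCAR8 cells with short hairpins against FAM49B, with 2 shCON libraries, from OVCAR8 cells with a scrambled hairpin. The protein product of FAM49B binds and restrains the small GTPase RAC1. Both groups carried a hairpin plasmid, and the labels give no other change of genotype. The design text speaks of a stable knockdown and the protocol of a transient transfection by lipid reagent, and which of these holds is not given in the sources used here. Levels are FPKM as deposited, reads per kilobase of gene with a factor per library that the authors had already applied. Levels of different genes can be compared per length, while differences between the groups depend on that factor.

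Complex I is built like an L. Its matrix arm takes electrons from NADH through a flavin and a chain of iron-sulfur clusters to ubiquinone, and its membrane arm pumps protons. The core subunits that carry out this reaction are encoded partly in the nucleus, as the genes here, and partly in the mitochondrial genome. Accessory subunits surround the core, and assembly factors help to build the complex without being part of it. Ovarian cancer cells are known to use oxidative phosphorylation to differing degrees.

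FAM49B itself had 1.06 and 1.02 FPKM in the shFAM49B libraries, against 7.41 and 7.60 FPKM in the shCON libraries, 7.21-fold lower (limma adjusted p = 0.00054). The reads recovered from the table came to 16288871 and 16290200 in shFAM49B and to 15639559 and 16875353 in shCON. Of 9 ovarian and epithelial lineage markers, KRT8 and KRT18 were above 20 FPKM in all 4 libraries, PAX8, MUC16 and KRT7 were near 0 and SOX17 was at 0. Of the 5 that were tested, EPCAM, KRT18 and MECOM fell and KRT8 and WT1 were not called, while under TPM all 5 fell. KRT18 was 1.18-fold and MECOM 1.39-fold lower in shFAM49B. EPCAM was 12.4-fold lower in shFAM49B, at 0.129 and 0.345 FPKM, against 2.94 and 2.96 FPKM in shCON (limma adjusted p = 0.00224). The 6 fibroblast markers summed to 6.32 and 6.84 FPKM in shFAM49B and to 5.96 and 6.57 FPKM in shCON, nearly all of it COL1A1, with COL1A2 at 0 in both shFAM49B libraries. The 6 leukocyte markers summed to 1.71 and 1.34 FPKM in shFAM49B and to 1.79 and 2.08 FPKM in shCON, and the defining marker PTPRC was at 0 in 3 of the 4 libraries. The 5 endothelial markers stayed at or under 0.501 FPKM in sum in every library. In bulk RNA, fewer cells of a kind and less RNA per cell cannot be told apart.

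Most nuclear complex I genes were moderately higher in shFAM49B. The levels of all 48 genes summed to 1397 and 1456 FPKM in shFAM49B (1426 ± 41.3, SD, n = 2), against 1020 and 1095 FPKM in shCON (1058 ± 52.9, SD, n = 2). The FPKM of all genes together also came to more, 291076 and 300214 in shFAM49B, against 251272 and 247706 in shCON. As a share of all recovered reads, which does not use the scaling of the table, the 48 genes took 0.253% and 0.258% in shFAM49B, against 0.218% and 0.232% in shCON. On both scales both shFAM49B libraries lay above both shCON libraries.

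Of the 44 genes that averaged at least 1 FPKM, which were tested, 29 rose, 3 fell and 12 were not called at an adjusted p of 0.05 in limma. Among all 13775 tested genes, 26.4% were called higher and 15.8% lower. The folds of the 29 genes that rose ran from 1.19 to 1.66, and no tested NDUF gene changed by as much as 2-fold. NDUFC1, NDUFC2 and NDUFAF4 were the 3 genes that fell. Without the second shFAM49B library 13 genes were called higher, and without the first shFAM49B library or the first shCON library 19 were. Leaving out the second shCON library gave 24 genes called higher and 0 lower. Both shFAM49B libraries lay above both shCON libraries for 34 of the 48 genes and below them for 5, while 9 overlapped. Of the 44 tested ones 33 lay above and 4 below, and among all tested genes these shares were 43.1% and 31.6%.

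The scaling between libraries sets how many of these changes are called. Median ratios had been used to scale the table before deposit. TPM is FPKM divided by the sum of all FPKM in its library, so that every library has the same sum. Rescaling to TPM shifted the log2 fold changes of the tested genes by a median of -0.24. The median over all tested genes went from 0.05 to -0.17. Under TPM 10 NDUF genes were called higher and 5 lower, while the shares of all tested genes were 11.6% higher and 31.7% lower. Relative to the median of all tested genes, the median log2 fold change of the 44 NDUF genes was 0.27 higher in the deposited scaling, 0.27 higher in TPM, 0.24 higher per recovered read and 0.16 higher after quantile normalization. The 10 genes called higher in every setting tried were NDUFV1, NDUFS3, NDUFS5, NDUFS7, NDUFA1, NDUFA3, NDUFA10, NDUFB3, NDUFB4 and NDUFAF3. NDUFC1, NDUFC2 and NDUFAF4 were called lower under all 5 scalings, but not in every setting: none of them was called with no filter on low values. The share of all tested genes that kept a call in every setting was not counted.

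**Figure D1:**
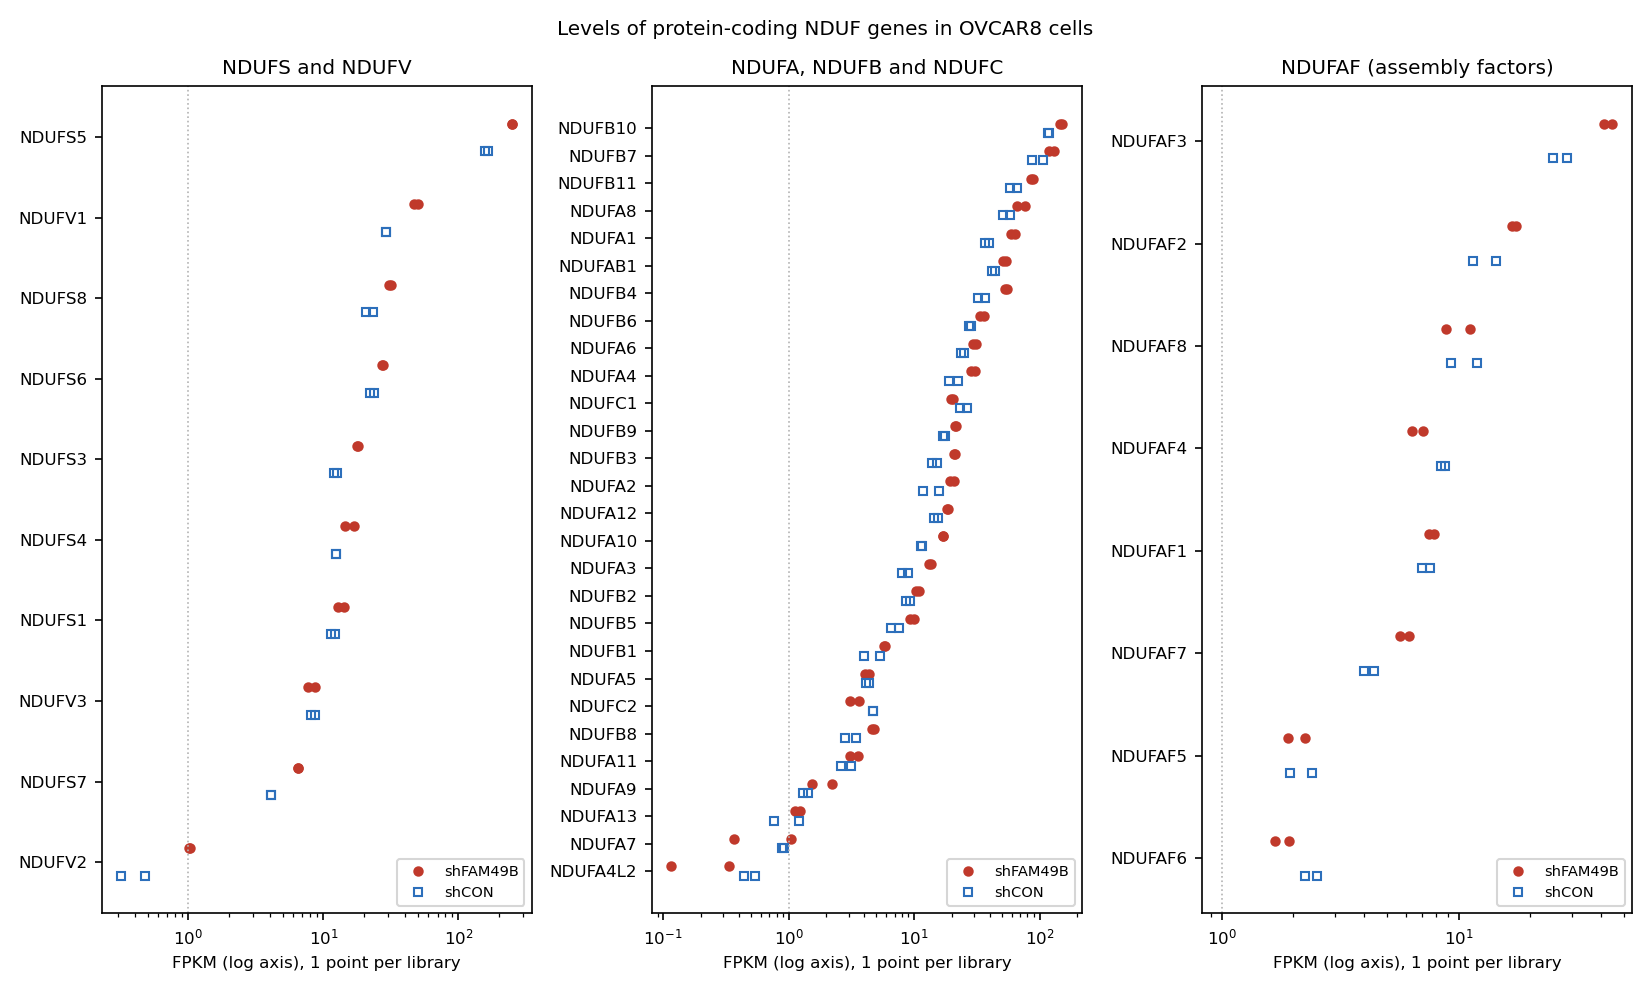
Level of NDUF genes in FPKM on a log axis, 1 point per library, with shFAM49B listed before shCON; the dotted line marks the 1 FPKM needed for testing. NDUFC2-KCTD14, at 0 in 3 of the 4 libraries, is not drawn. NDUFS5, at 250 and 247 FPKM in shFAM49B and 156 and 167 FPKM in shCON, has the highest level.

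Most core subunits of the matrix arm rose. Both shFAM49B libraries lay above both shCON libraries for all 7 core genes, against 43.1% of all tested genes. NDUFV2, 1 of the 7, was too low to test. Of the 6 that could be tested 5 were called higher, with a median log2 fold change of 0.49. Called higher were 26.4% of all tested genes, and 45.8% of those that averaged at least 10 FPKM. Under TPM 3 of the 6 core genes were called higher, against 11.6% of all tested genes. NDUFV1 binds the flavin that takes electrons from NADH. Its gene (ENSG00000167792, chromosome 11, 67605653 to 67612554, plus strand, GRCh38) had 46.7 and 49.96 FPKM in shFAM49B, against 29.2 and 28.97 FPKM in shCON. This 1.66-fold difference was the largest among the tested NDUF genes (log2 fold change 0.71, SE 0.059, limma adjusted p = 0.00193).

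NDUFV2 carries an iron-sulfur cluster beside NDUFV1 in the NADH-oxidising module. It had 1.03 and 1.01 FPKM in shFAM49B, against 0.481 and 0.319 FPKM in shCON, from 16 to 43 reads per library. Its mean was under 1 FPKM, so it was left out of the test, and without that filter its limma adjusted p was 0.0936. Of its coding bases 84.7% lie also in AP005263.1 on the same strand. AP005263.1 was listed at 0 in all 4 libraries, and whether counting lost reads that both genes share was not tested. NDUFS1, the largest core subunit, which holds several iron-sulfur clusters, had 12.7 and 14.1 FPKM in shFAM49B, against 12.3 and 11.5 FPKM in shCON. The groups did not overlap, yet the difference was not called (limma adjusted p = 0.141), and its sign turned under TPM and per recovered read.

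NDUFS3, NDUFS7 and NDUFS8 lie between the NADH module and the membrane arm, where ubiquinone is reduced, and all 3 rose. NDUFS7 (ENSG00000115286, chromosome 19, 1383527 to 1395589, plus strand, GRCh38) holds the last cluster of the chain, next to the quinone. It had 6.48 and 6.49 FPKM in shFAM49B, against 4.12 and 4.11 FPKM in shCON, 1.58-fold higher (limma adjusted p = 0.00362). The libraries of each group nearly coincided for this gene.

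NDUFS3, a core subunit without a cluster, had 17.8 and 18.1 FPKM in shFAM49B, against 12.0 and 12.7 FPKM in shCON, 1.45-fold higher. NDUFS8, which carries iron-sulfur clusters that pass electrons to NDUFS7, had 30.5 and 31.4 FPKM in shFAM49B, against 20.9 and 23.4 FPKM in shCON, 1.40-fold higher. NDUFS3 was called under TPM too (limma adjusted p = 0.0198), whereas NDUFS8 was not (0.0565).

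Of the accessory subunits with NDUFS or NDUFV names, 3 rose and NDUFV3 was not called. NDUFS5, a cysteine-rich subunit on the intermembrane-space side, had the highest level of all 48 genes, at 250 and 247 FPKM in shFAM49B, against 156 and 167 FPKM in shCON (log2 fold change 0.62, limma adjusted p = 0.0024). NDUFS4 and NDUFS6, accessory subunits of the NADH module, were 1.27-fold and 1.19-fold higher in shFAM49B. NDUFV3, a small subunit of the same module, had 7.72 and 8.74 FPKM in shFAM49B, against 8.66 and 8.13 FPKM in shCON, and the groups overlapped. Under TPM NDUFV3 was called lower (limma adjusted p = 0.0436). In all, 8 of the 10 tested NDUFS and NDUFV genes rose, against 26.4% of all tested genes, and none fell. Their median log2 fold change was 0.41, against 0.05 over all tested genes. Under TPM 4 rose and 1, NDUFV3, fell, and without the second shFAM49B library 5 rose.

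**Figure D2:**
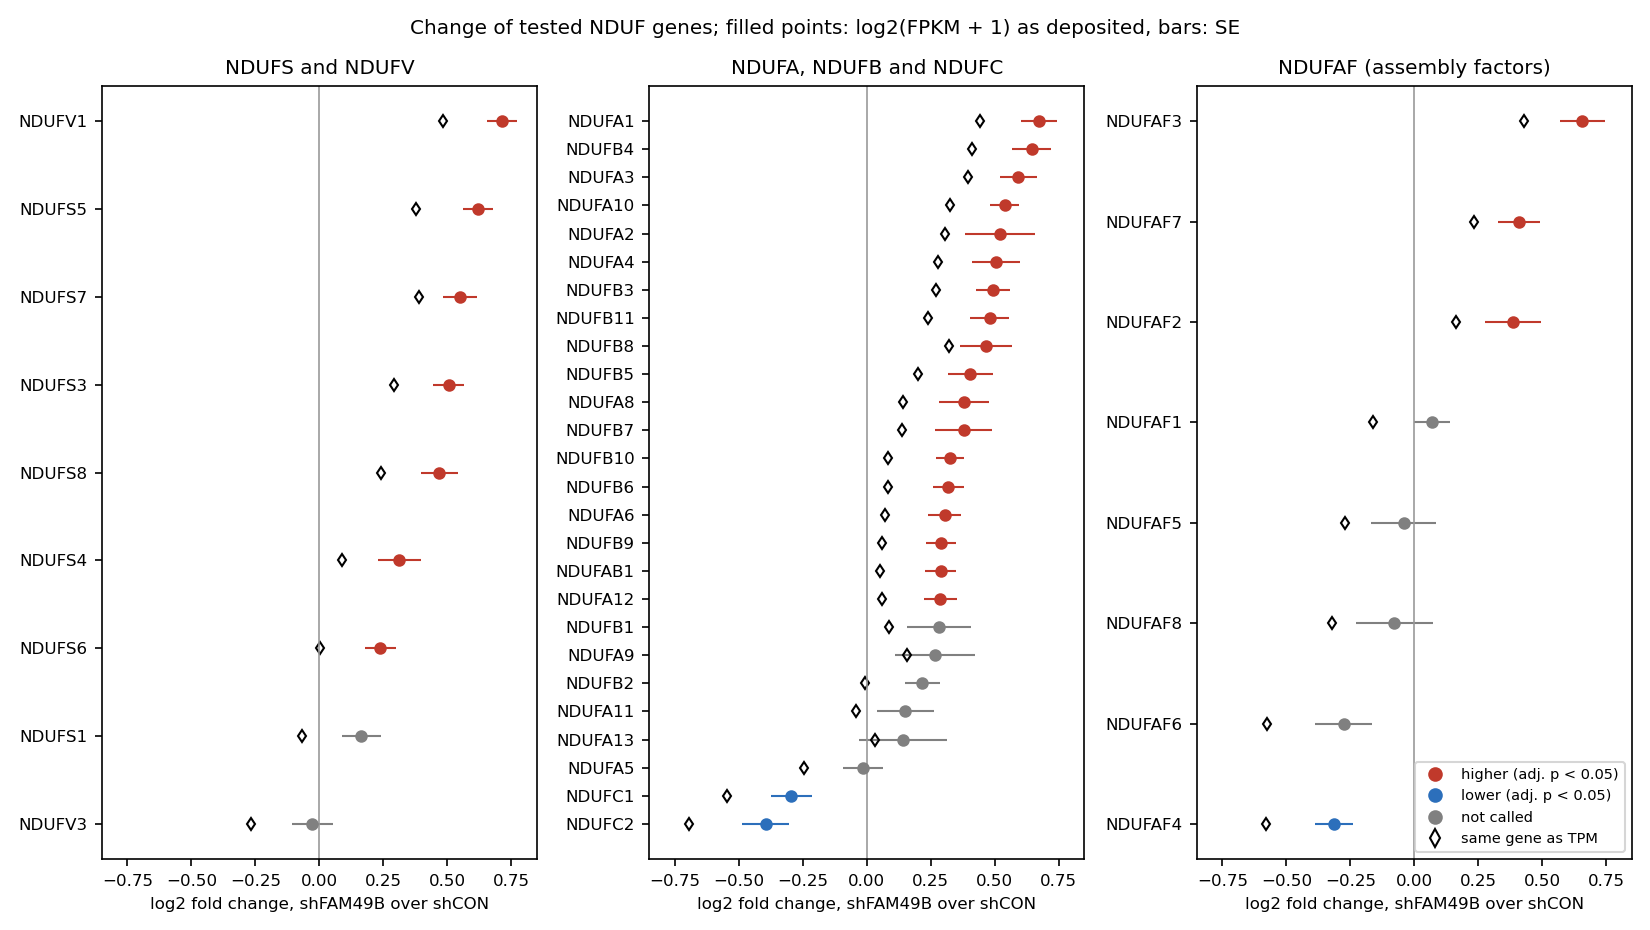
Log2 fold change (shFAM49B over shCON, on log2(FPKM + 1)) of tested NDUF genes with its standard error, grouped by name and coloured by call; open diamonds are the same change computed from TPM, which lie further left for every gene drawn. NDUFV1, at 0.71, lies at the top of the range and NDUFC2, at -0.40, at the bottom.

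The accessory subunits named NDUFA, NDUFB and NDUFC went mostly the same way. Of 26 tested genes 18 rose, against 26.4% of all tested genes, 2 fell, against 15.8%, and 6 were not called. Their median log2 fold change was 0.32. Under TPM 5 rose and 2 fell, and without the second shFAM49B library 6 rose and 1 fell. Their levels summed to 849 and 896 FPKM in shFAM49B, against 640 and 691 FPKM in shCON. The median stayed above 0 in all 5 scalings, from 0.11 under TPM to 0.32 as deposited.

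NDUFA1, a small membrane subunit encoded on the X chromosome that is needed for assembly, led the NDUFA genes. It had 59.3 and 63.7 FPKM in shFAM49B, against 39.9 and 36.5 FPKM in shCON, 1.61-fold higher (log2 fold change 0.67, SE 0.0708, limma adjusted p = 0.00283). On the opposite strand RNF113A overlaps 44.5% of its exon bases, and the library kit does not mark strand, so reads there cannot be assigned. NDUFA3, a small single-span membrane subunit, had 13.6 and 13.1 FPKM in shFAM49B, against 8.07 and 8.98 FPKM in shCON. NDUFA10, a membrane-arm subunit related to nucleoside kinases, had 16.99 and 17.01 FPKM in shFAM49B, against 11.2 and 11.5 FPKM in shCON, 1.49-fold higher. In each of these 3 genes the lower shFAM49B library lay well above the higher shCON library.

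NDUFA2, NDUFA6, NDUFA8, NDUFA12 and NDUFAB1 also rose, by 1.23-fold to 1.45-fold. NDUFA2 has a thioredoxin-like fold, NDUFA6 belongs to the LYR-motif proteins, and NDUFAB1 is the mitochondrial acyl carrier protein, which such LYR proteins bind. NDUFA8 is a cysteine-rich intermembrane-space subunit. NDUFA12 is the paralog of the assembly factor NDUFAF2. None of these 5 was called under TPM.

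The 11 NDUFB genes encode the accessory subunits of the distal membrane arm. All 11 had both shFAM49B libraries above both shCON libraries, and 9 were called higher. Among all tested genes 43.1% lay above in this way. Called higher were 26.4% of all tested genes, and 45.8% of those that averaged at least 10 FPKM. TPM left 2 of the 11 called higher, beside 11.6% of all tested genes. NDUFB4 led the NDUFB genes, with 53.0 and 55.1 FPKM in shFAM49B, against 32.1 and 36.4 FPKM in shCON, 1.58-fold higher (log2 fold change 0.64, SE 0.0764, limma adjusted p = 0.00353). NDUFB3, the other NDUFB gene called under TPM, had 20.6 and 21.0 FPKM in shFAM49B, against 15.2 and 13.9 FPKM in shCON, 1.43-fold higher. NDUFB10 and NDUFB7, cysteine-rich subunits on the intermembrane-space side, had the next highest levels after NDUFS5.

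NDUFB10 had 146 and 152 FPKM in shFAM49B, against 117 and 120 FPKM in shCON, 1.26-fold higher, and NDUFB7 was 1.30-fold higher. After quantile normalization the sign of both turned, to log2 fold changes of -0.12 and -0.03. The remaining NDUFB genes that rose were NDUFB5, NDUFB6, NDUFB8, NDUFB9, a LYR-motif protein, and NDUFB11, at 1.24-fold to 1.498-fold. NDUFB2 had 10.8 and 10.4 FPKM in shFAM49B, against 8.66 and 9.34 FPKM in shCON, and missed the threshold (limma adjusted p = 0.0513). NDUFB1 had 5.85 and 5.76 FPKM in shFAM49B, against 5.32 and 3.97 FPKM in shCON, and was not called (0.129).

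The 2 tested NDUFC genes, which encode small membrane subunits that sit together in the complex, went the other way. NDUFC2 (ENSG00000151366, chromosome 11, 78068304 to 78080219, minus strand, GRCh38) had 3.07 and 3.63 FPKM in shFAM49B, against 4.72 and 4.71 FPKM in shCON, 1.41-fold lower (log2 fold change -0.40, SE 0.0915, limma adjusted p = 0.0217). NDUFC1 (ENSG00000109390, chromosome 4, 139266880 to 139302551, minus strand, GRCh38) had 20.3 and 19.8 FPKM in shFAM49B, against 23.2 and 26.6 FPKM in shCON, 1.24-fold lower (log2 fold change -0.30, SE 0.08, limma adjusted p = 0.0342). For both genes the 2 groups were separate. Of the 4 fits that leave out 1 library, NDUFC2 was called only without the second shFAM49B library and NDUFC1 only without the first shCON library. A ratio between genes within a library does not depend on scaling, but it holds the change of both genes, and NDUFV1 and NDUFB10, used here, both rose. NDUFC2 over NDUFV1, the gene with the largest rise, was 0.0658 and 0.0726 in shFAM49B, against 0.162 and 0.163 in shCON. Over NDUFB10, which rose less, NDUFC2 was 0.0211 and 0.0239 in shFAM49B, against 0.0402 and 0.0393 in shCON. NDUFC1 over NDUFB10 was 0.139 and 0.130 in shFAM49B, against 0.198 and 0.222 in shCON.

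The counting of both genes has limits. The readthrough NDUFC2-KCTD14 covers 76.9% of the coding bases of NDUFC2 on the same strand and was itself listed at 0 in both shFAM49B libraries and in 1 shCON library, with 3 reads in the other. MGARP covers 18.6% of the exon bases of NDUFC1 on the same strand, and had 5.75 and 5.59 FPKM in shFAM49B, against 6.64 and 8.85 FPKM in shCON. The part of these overlaps in the lower levels was not tested.

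The NDUFA genes not called were NDUFA5, NDUFA9, NDUFA11 and NDUFA13. NDUFA5, a matrix-arm subunit, had 4.03 and 4.37 FPKM in shFAM49B, against 4.34 and 4.15 FPKM in shCON, with overlapping groups. NDUFA9, a matrix-arm subunit related to short-chain dehydrogenases, had 1.53 and 2.21 FPKM in shFAM49B, against 1.43 and 1.31 FPKM in shCON. NDUFA11, a membrane subunit of the TIM17 family, had 3.07 and 3.55 FPKM in shFAM49B, against 2.62 and 3.15 FPKM in shCON. NDUFA13, also known as GRIM-19, had 1.13 and 1.23 FPKM in shFAM49B, against 0.766 and 1.22 FPKM in shCON. All 4 genes were at low levels in FPKM, with 35 to 756 reads per library behind each value. NDUFA5 had 608 to 756 of these reads, while NDUFA1, which was called higher, had 515 to 730 per library. NDUFA7, a matrix-arm subunit that was too low to test, had 0.369 and 1.04 FPKM in shFAM49B, against 0.881 and 0.919 FPKM in shCON.

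NDUFA4, the subunit of complex IV, had 28.4 and 30.6 FPKM in shFAM49B, against 18.8 and 22.3 FPKM in shCON, 1.44-fold higher (limma adjusted p = 0.0114). Its paralog NDUFA4L2, known as a target of the hypoxia-inducible factors, was not tested, at 0.116 and 0.333 FPKM in shFAM49B, against 0.444 and 0.540 FPKM in shCON, from 5 to 28 reads. Without the filter on low values its limma adjusted p was 0.266.

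By place in the complex, 10 of 14 tested matrix-arm genes rose and none fell, 5 of 9 genes of the proximal membrane arm rose and 2 fell, and 9 of 11 genes of the distal membrane arm rose and none fell. The median log2 fold changes of the 3 places were 0.31, 0.38 and 0.38. Under TPM the numbers that rose were 3, 4 and 2, the medians were 0.11, 0.14 and 0.14, and 1 matrix-arm gene, NDUFV3, and 2 genes of the proximal membrane arm fell. The shares of all tested genes called higher and lower were 26.4% and 15.8%, and under TPM 11.6% and 31.7%. The medians over all tested genes were 0.05 as deposited and -0.17 under TPM. Each place held both genes that rose and genes that were not called.

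Of the 8 assembly factors with NDUFAF names 3 rose, 1 fell and 4 were not called, while under TPM 1 rose and 2 fell. Over all tested genes 26.4% were called higher and 15.8% lower, and under TPM 11.6% and 31.7%. The median log2 fold change of the NDUFAF genes was 0.01 as deposited. It turned to -0.22 under TPM, -0.16 per recovered read and -0.04 under median ratios over tested genes. NDUFAF3 (ENSG00000178057, chromosome 3, 49020459 to 49023495, plus strand, GRCh38) and NDUFAF4 (ENSG00000123545, chromosome 6, 96889313 to 96897881, minus strand, GRCh38) encode proteins that bind each other and act early, in building the part of the matrix arm next to the membrane. They moved in opposite directions. NDUFAF3 had 41.2 and 44.6 FPKM in shFAM49B, against 25.01 and 28.8 FPKM in shCON, 1.60-fold higher (log2 fold change 0.66, SE 0.0862, limma adjusted p = 0.00446).

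NDUFAF4 had 7.06 and 6.37 FPKM in shFAM49B, against 8.40 and 8.77 FPKM in shCON, 1.28-fold lower (log2 fold change -0.31, SE 0.0745, limma adjusted p = 0.0232). Of the 4 fits that leave out 1 library it was called only without the first shFAM49B library.

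NDUFAF7, a methyltransferase that modifies a matrix-arm subunit, had 6.16 and 5.64 FPKM in shFAM49B, against 3.99 and 4.399 FPKM in shCON, 1.41-fold higher (limma adjusted p = 0.0144). NDUFAF2, which acts late and is the paralog of NDUFA12, had 17.4 and 16.8 FPKM in shFAM49B, against 11.5 and 14.4 FPKM in shCON, 1.32-fold higher (0.04). Neither was called under TPM. NDUFAF6, an early assembly factor, had 1.92 and 1.68 FPKM in shFAM49B, against 2.26 and 2.52 FPKM in shCON, which was not called as deposited (limma adjusted p = 0.101) but was called lower under TPM (0.0327).

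NDUFAF1, a member of the assembly complex that builds the membrane arm, had 7.91 and 7.54 FPKM in shFAM49B, against 7.02 and 7.61 FPKM in shCON. NDUFAF5, a hydroxylase that modifies NDUFS7, had 2.26 and 1.90 FPKM in shFAM49B, against 1.95 and 2.40 FPKM in shCON. NDUFAF8, the partner that stabilises NDUFAF5, had 8.86 and 11.2 FPKM in shFAM49B, against 9.31 and 12.0 FPKM in shCON. The libraries of these 3 genes overlapped between groups.

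The assembly factors that carry other names were read beside them. Of 14 such genes, all tested, 6 rose, 1 fell and 7 were not called, with a median log2 fold change of 0.23. Under TPM 3 rose and 2 fell. The shares over all tested genes were 26.4% higher and 15.8% lower, and under TPM 11.6% and 31.7%. ECSIT and ACAD9 work with NDUFAF1 in building the membrane arm. ECSIT had 33.4 and 40.7 FPKM in shFAM49B, against 19.5 and 17.6 FPKM in shCON, 2.00-fold higher (limma adjusted p = 0.00328), a larger fold than any tested NDUF gene showed. DMAC2, a distal membrane-arm assembly factor, was 1.56-fold higher. LYRM2, a LYR-motif protein, had 2.33 and 2.29 FPKM in shFAM49B, against 3.84 and 3.70 FPKM in shCON, 1.63-fold lower (limma adjusted p = 0.00722).

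Genes of high level were more often called higher in the whole table, and the nuclear complex I genes include many of them. Among tested genes that averaged at least 10 FPKM, 45.8% were called higher and 12.5% lower, with a median log2 fold change of 0.19. Of the 28 NDUF genes at that level 25 were called higher, 1 was lower and 2 were not called, with a median of 0.38. Of the 16 NDUF genes between 1 and 10 FPKM 4 rose, 2 fell and 10 were not called, with a median of 0.15, against -0.01 for all tested genes of that level.

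The finer classes show the same difference up to 50 FPKM and not above. In the class from 10 to 50 FPKM the medians were 0.38 for 23 NDUF genes and 0.15 for all tested genes. In the class of 50 FPKM and more the 5 NDUF genes, all called higher, had a median of 0.38, and all 719 tested genes had 0.43, with 73.9% called higher. Across the 44 tested genes, log2 fold change and mean level had a Spearman's rho of 0.535, and across all tested genes 0.286. With gene length rho was -0.212 for the NDUF genes and -0.0673 for all tested genes. These describe genes measured in the same 4 libraries, which are not independent replicates. The part of expression level in the count of NDUF genes called was not tested.

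**Figure D3:**
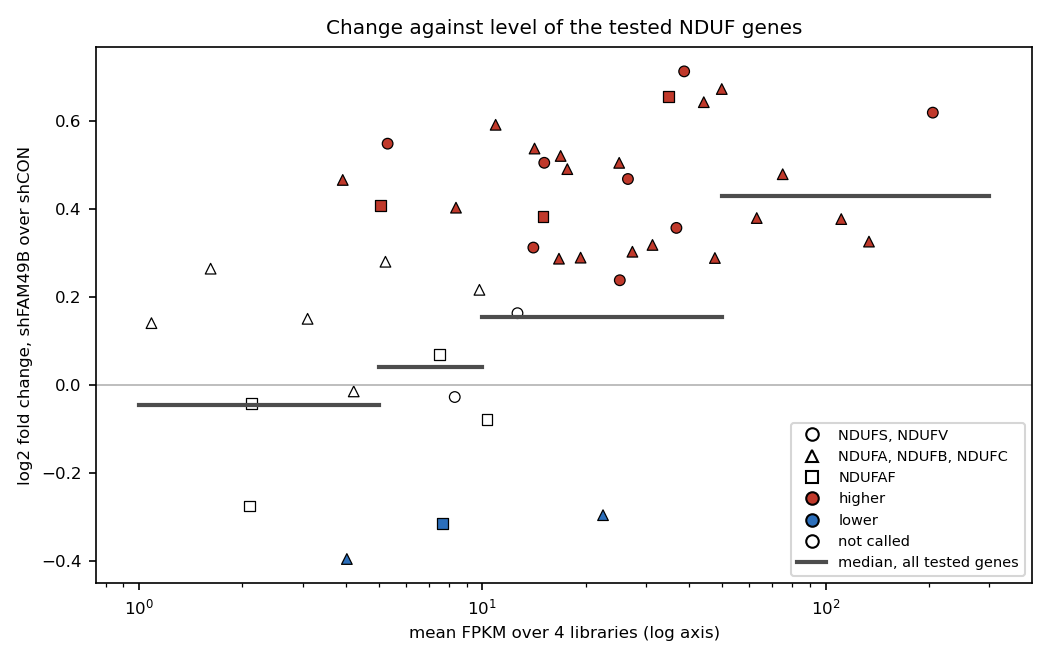
Log2 fold change (shFAM49B over shCON) against mean level in FPKM on a log axis for the 44 tested NDUF genes, with lines for the median of all tested genes in 4 classes of level. The NDUF genes lie mostly above the line between 10 and 50 FPKM, where the medians were 0.38 and 0.15, and around it from 50 FPKM on.

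Several NDUF genes of low level share coding bases with a same-strand gene, while NDUFA4L2, NDUFAF5 and NDUFAF6, also low, share none. In 7 NDUF genes, at least 50% of the coding bases lie also in another gene on the same strand: NDUFV2, NDUFA7, NDUFA9, NDUFA13, NDUFB8, NDUFC2 and NDUFC2-KCTD14. The median level of these 7 was 1.09 FPKM, against 16.7 FPKM for the other 41. NDUFB8, for example, a distal membrane-arm subunit, had 4.80 and 4.61 FPKM in shFAM49B, against 2.82 and 3.46 FPKM in shCON, with 85.2% of its coding bases shared. How the counting treated reads that lie in more than 1 gene is not given in the sources used here, so their levels may be read too low, and this was not tested. Genes on the opposite strand also cover part of some NDUF genes. DALRD3 covers 21.7% of the exon bases of NDUFAF3, and had 8.47 and 9.11 FPKM in shFAM49B, against 4.80 and 5.38 FPKM in shCON. RBM10 covers 44.9% of those of NDUFB11. Antisense genes cover 49.1% of those of NDUFS7, each at under 1 FPKM in every library. Of the 41 genes with under 50% of their coding bases shared on the same strand, whatever lies on the opposite strand, 40 were tested, of which 28 rose, 2 fell and 10 were not called.

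The other respiratory complexes were read from lists for comparison. Of the tested nuclear genes, 8 of 9 rose for complex III, 11 of 11 for complex IV, NDUFA4 among them, and 13 of 18 for complex V, and none of these fell. Their median log2 fold changes were 0.42, 0.55 and 0.39. Under TPM 4, 8 and 4 of them rose and none fell. Of the 8 complex II subunits and assembly factors 5 rose and none fell, with a median of 0.33, while under TPM 2 rose and 1, SDHAF3, fell, with a median of 0.10. The medians for the NDUFS and NDUFV genes, 0.41, and for the NDUFA, NDUFB and NDUFC genes, 0.32, stand beside these values, the second slightly under all 4 of them. The difference between complexes was not tested. Of all tested genes 26.4% were called higher and 15.8% lower, and under TPM 11.6% and 31.7%. As deposited, 45.8% of those averaging at least 10 FPKM and 73.9% of those at 50 FPKM and more were called higher.

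In complex II, SDHA, the flavin-binding subunit, and SDHAF4, an assembly factor, had the smallest p. In complex III these were UQCRC2 and UQCRC1, the core proteins, and in complex IV COX5A and COX7B. In complex V they were ATP5F1A and ATP5F1B, subunits of the catalytic head. Of 13 tested genes of mitochondrial iron-sulfur cluster synthesis, which supplies the clusters of the matrix arm, 4 rose, 1 fell and 8 were not called, with a median log2 fold change of 0.16. Under TPM 2 rose and 3 fell, and the median turned to -0.063. LYRM4, a partner of the cysteine desulfurase, and FDXR, which passes electrons to ferredoxin, led those that rose. The co-chaperone HSCB was the gene that fell. For comparison, 26.4% of all tested genes were called higher and 15.8% lower, and under TPM 11.6% and 31.7%.

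**Figure D4:**
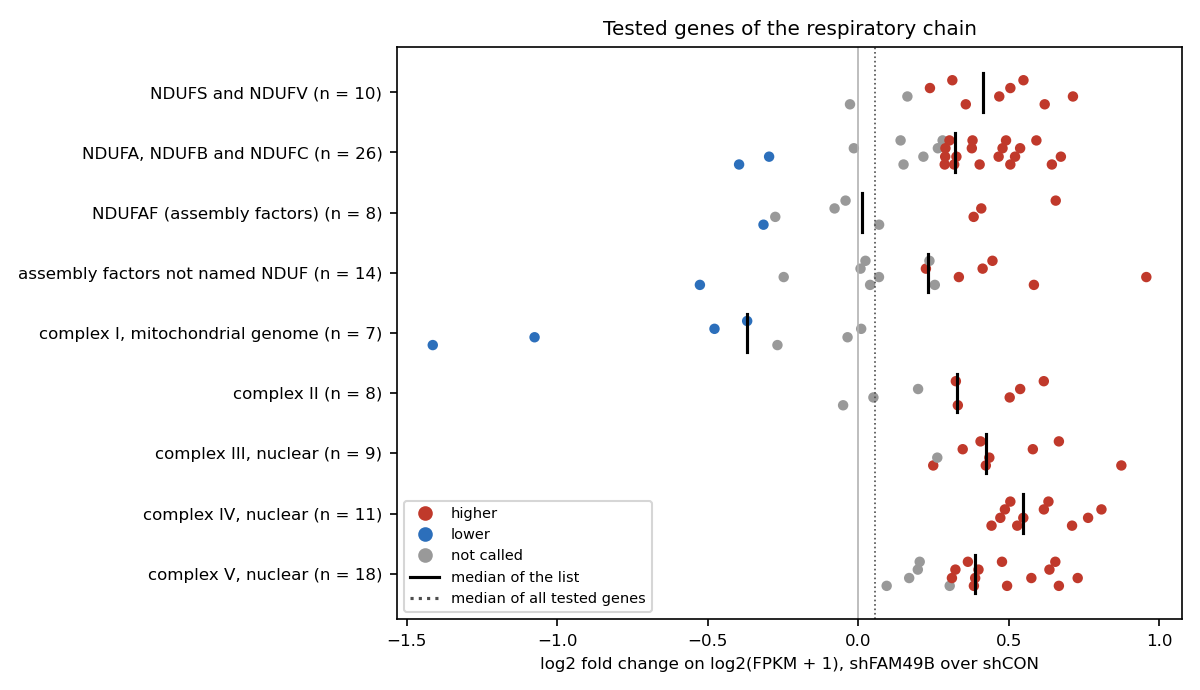
Log2 fold change (shFAM49B over shCON) of the tested genes of each list, 1 point per gene, coloured by call, with the median of each list. The medians are above 0 for the nuclear subunits, at 0.41 and 0.32 for the NDUF subunit groups, and -0.37 for the mitochondrial genome's complex I genes; the median of the NDUFAF genes, 0.01, turned negative under TPM.

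The core subunits encoded in the mitochondrial genome did not share the direction of the nuclear ones. Of 7 MT-ND genes none rose, 4 fell, against 15.8% of all tested genes, and 3 were not called. Their median log2 fold change was -0.37. Under TPM 6 fell, against 31.7% of all tested genes, with a median of -0.61. MT-ND2 had 693 and 718 FPKM in shFAM49B, against 1978 and 1790 FPKM in shCON, 2.67-fold lower, and MT-ND1 was 2.11-fold lower, MT-ND5 1.40-fold and MT-ND6 1.30-fold. MT-ND3, MT-ND4 and MT-ND4L were not called as deposited.

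Among 11 tested regulators of respiratory chain genes, 3 rose, 3 fell and 5 were not called, with a median log2 fold change of -0.040, while under TPM 3 rose and 4 fell, with a median of -0.28. ESRRA, a nuclear receptor that acts on such genes, had 20.7 and 19.9 FPKM in shFAM49B, against 14.5 and 14.2 FPKM in shCON, and TFB1M, a mitochondrial ribosomal RNA methyltransferase, was 1.53-fold higher. TFAM, which packages and transcribes mitochondrial DNA, had 15.1 and 13.7 FPKM in shFAM49B, against 24.9 and 24.1 FPKM in shCON, 1.70-fold lower (limma adjusted p = 0.00234). YY1, a zinc finger factor, was 1.36-fold lower. Beside the counts of these regulators, 26.4% of all tested genes were called higher and 15.8% lower. Under TPM these shares were 11.6% and 31.7%.

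NRF1 (nuclear respiratory factor 1) binds a GC-rich palindrome in the promoters of many respiratory chain genes, and is given here for its motif. It had 8.27 and 8.39 FPKM in shFAM49B, against 6.02 and 5.34 FPKM in shCON, 1.47-fold higher (limma adjusted p = 0.00732). Promoters, from 250 bases before to 50 bases after a gene's start, were taken from RefSeq (GRCh38.p14), where 40 of the 48 NDUF genes were matched. Those not matched included NDUFA4, NDUFA4L2, NDUFAF6, NDUFB5, NDUFB9, NDUFC2 and NDUFS5. The letters GCGCATGCG, on either strand, were found in 6 of the 40, or 15%, against 4.34% of the promoters of 9105 tested protein-coding genes and 2.34% of all 27305. The 4 matches that lie wholly before the start are shown with 20 bases on each side, as examples of the motif beside genes that rose and a gene that was not called. Each is read 5′ to 3′ on the gene's strand, with the motif in capitals.
NDUFB4: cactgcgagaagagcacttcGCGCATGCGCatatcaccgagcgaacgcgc
NDUFS7: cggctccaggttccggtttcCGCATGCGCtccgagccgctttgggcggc
NDUFS6: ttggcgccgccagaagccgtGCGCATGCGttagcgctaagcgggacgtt
NDUFA5: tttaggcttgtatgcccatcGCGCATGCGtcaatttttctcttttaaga

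The NDUFB4 window is chr3:120596157-120596206 on the plus strand, and its 10 capitals hold the motif on both strands, shifted by 1 base. The NDUFS7 window, chr19:1383813-1383861 on the plus strand, holds it on the reverse strand. The NDUFS6 window is chr5:1801341-1801389 on the plus strand, and the NDUFA5 window is chr7:123557948-123557996 on the minus strand. The motif began 159, 74, 46 and 158 bases before the start of NDUFB4, NDUFS7, NDUFS6 and NDUFA5 in that order. Where RefSeq lists several promoters for a gene, a match in any of them counted. NDUFA5 has other promoters without the motif, and the distance given is to the start of the matching one. NDUFA8 and NDUFAF5 had their match across the start.

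Of the 6 genes with the motif, NDUFB4, NDUFS7, NDUFS6 and NDUFA8 rose, at 1.58-fold, 1.58-fold, 1.19-fold and 1.31-fold. NDUFA5 and NDUFAF5 were not called, at log2 fold changes of -0.01 and -0.04. The letters CCGGAAG, a core of the sites of ETS-family factors such as GABPA, were found in 7 of the 40 promoters, or 17.5%, against 23.1% of the promoters of tested protein-coding genes. No NDUF promoter held both motifs, so no match of one overlapped the other. GABPA, likewise given for its motif, had 12.0 and 10.2 FPKM in shFAM49B, against 13.7 and 13.9 FPKM in shCON, 1.24-fold lower (limma adjusted p = 0.0422). A match of letters describes the window only.

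Another 62 genes of the table have names beginning with NDUF and do not code for protein, of which 59 are pseudogenes. Of these pseudogenes 38 were at 0 in every library and 1, NDUFB4P12, had a mean of at least 1 FPKM. The pseudogenes took 142 reads in all, against 156480 reads on the 48 protein-coding genes.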

How the data were processed

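RNA of OVCAR8 cells was sequenced in 2 shFAM49B and 2 shCON libraries, grouped by their titles, prepared, per the labels' protocols, with NEBNext Ultra reagents. This kit does not mark strand. The authors deposited 1 table of FPKM, per the file headers, for 58735 genes. Aligner and counter: not given in the sources used here. Mouse builds are named in the submitters' processing notes, but all 58735 identifiers are human and have the start and end of GENCODE 29, so coordinates are on GRCh38.

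Multiplied by gene length, 100% of values were whole multiples of 1 step per library (tolerance 0.001 of a step), which gave back the reads, 15639559 to 16875353 per library. The denominators of the deposited FPKM were 0.941 and 0.919 times these totals in shFAM49B and 1.08 and 1.10 times in shCON, so the values had been scaled between libraries before deposit. In a gene of 1 kb, 3 reads equal 0.162 to 0.200 FPKM, which covers counting error only. Within groups the reads differed by a chi-square per gene of 3.48 (shFAM49B) and 3.90 (shCON), and between groups by 48.9 to 56.1, so each library was kept as 1 sample.

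Genes averaging at least 1 FPKM were tested on log2(FPKM + 1) with limma 3.58.1 in R 4.3.3, with moderated variances (empirical Bayes, trend on mean level), 2-sided, with Benjamini-Hochberg adjustment over all 13775 genes and a threshold of 0.05. Every adjusted p comes from limma. Log2 fold changes are on that scale, which understates the change of low genes, and folds are ratios of mean FPKM. Residual degrees of freedom were 2, with 3.32 added from all genes. Separate cultures are not stated in the labels. The p-values therefore reflect the spread among these 4 libraries alone, and that spread may be technical. The procedure was also run on simulated reads in which few genes changed, equally often up and down. Far more genes were called here, and unevenly, so that run cannot show whether the calls here are sound.

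The genes and lists were chosen with earlier results of these data known. The values of 1 gene are not reported here or drawn by name, though counts, medians and sums include it. Values are given for the core subunits, NDUFA4, NDUFA4L2, NDUFC2-KCTD14, in each name group the called genes with the largest changes, up to 4 in each direction, and the genes not called, and from each list the 2 genes with the smallest p in each direction and the MT-ND genes. Other genes were named after their values were seen. Alternatives were another pseudocount (0.1), no filter or a filter of 5 FPKM, other scalings, voom on recovered reads, a replicate block and leaving out each library.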

Additional observations from a re-analysis of the deposited data

How the results depend on the processing

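Depth and scaling limit these results: with 2 libraries per group, small changes of low genes can be missed. TPM shifted the log2 fold changes of all tested genes by a median of -0.24, as much as the change of several NDUF genes. Where a value changed, the cause was not tested beyond what each alternative's own construction shows.

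Over all tested genes, 3642 were called higher and 2170 lower. These became 2185 and 1378 with no filter on low values, 1597 and 4362 under TPM, and 1722 and 4173 per recovered read. A mean of at least 5 FPKM, which leaves fewer genes, gave 1322 lower. Leaving out single libraries gave 1897 to 2495 higher and 1027 to 1529 lower. Of all calls the share higher was 62.7% as deposited, 26.8% under TPM, 29.2% per recovered read, 52.0% after quantile normalization and 52.5% under median ratios over tested genes.

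Of the NDUFS and NDUFV genes 8 were called higher; this was 4 under TPM (with 1 lower), 5 per recovered read, 5 after quantile normalization, 5 among the 7 core subunits by function and 5 to 7 when a library was left out. Their median of 0.41 became 0.18 under TPM, 0.20 per recovered read, 0.20 after quantile normalization and 0.35 under median ratios over tested genes. Of the NDUFA, NDUFB and NDUFC genes 18 were called higher and 2 lower; this was 5 higher under TPM, 5 per recovered read, 8 after quantile normalization, 0 lower with no filter, 1 lower with at least 5 FPKM, and 6 to 15 higher and 0 to 1 lower when a library was left out. Their median of 0.32 became 0.38 with at least 5 FPKM, 0.11 under TPM, 0.11 per recovered read, 0.18 after quantile normalization, 0.25 under median ratios over tested genes, 0.36 with voom and 0.29 to 0.40 when a library was left out. Of the NDUFAF genes 3 were called higher and 1 lower; this was 1 and 0 with no filter, 1 and 2 under TPM, 1 and 2 per recovered read, 2 lower with voom, and 1 to 3 higher and 0 to 1 lower when a library was left out. Their median of 0.01 became 0.23 with at least 5 FPKM, -0.22 under TPM, -0.16 per recovered read, -0.040 under median ratios over tested genes and -0.063 to 0.10 when a library was left out.

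Single genes that turned sign were under TPM NDUFA11 (-0.041), NDUFB2 (-0.0057), NDUFAF1 (-0.16) and NDUFS1 (-0.067), per recovered read NDUFA11 (-0.020), NDUFAF1 (-0.13) and NDUFS1 (-0.045), and after quantile normalization NDUFB10 (-0.12), NDUFB7 (-0.028) and NDUFAF5 (0.020). When a library was left out the log2 fold changes of genes that turned ran from -0.024 to 0.31 for NDUFA13, -0.062 to 0.033 for NDUFA5, -0.14 to 0.061 for NDUFAF5, -0.25 to 0.088 for NDUFAF8 and -0.11 to 0.053 for NDUFV3. A pseudocount of 0.1 changed no NDUF call.

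Whether the replicate numbers pair the samples is not stated in the labels. The deviations of the first replicates from their group means had a correlation of -0.0132 over 13775 genes. No shared replicate effect was seen, but 2 libraries per group cannot decide on pairing. A replicate block gave 3429 genes higher and 2036 lower over all tested genes and changed no NDUF call, with 29 higher and 3 lower.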
